A study of Mus musculus with 17 samples.

Results

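The genes examined were 10 transcription factor genes of the early neural tube: Pax6, Pax3, Pax7, Rfx4, Onecut1, Onecut2, Nkx6-1, Nkx2-2, Irx3 and Dbx1. They were a chosen list, taken from 22367 protein-coding genes of the mm9 annotation, and were followed through H3K27ac HiChIP, an assay that counts read pairs joining 2 chromatin regions (anchors) in material precipitated for H3K27ac, a mark of active promoters and enhancers. A loop was assigned to a gene when one of its anchors lay within 5 kb of an annotated transcription start site (TSS). The 10 genes then had 25 TSS anchors and 756 of 1211657 loops (0.0624%), and no loop was shared between them. These loops held 1180 bulk and 141 double positive read pairs, 0.073% and 0.0345% of all read pairs of each group, and 550 loops (72.8%) had 1 read pair only.

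All cells came from R1 mouse embryonic stem cells that formed embryoid bodies (EBs) in hanging drops and were then kept in 0.5 µM retinoic acid (RA) until day 4; no genetic change was named for either group. The 12 bulk libraries held all EB cells. The 5 double positive libraries, labelled cluster2, held cells sorted for the surface proteins EpCAM and CD38, so a gate on 2 proteins defined this group, and cells that would pass the gate are also part of the bulk. Between 65178 and 241202 read pairs lay in loops of a bulk library (median 135124.5), and between 50508 and 118179 in a double positive library (median 85966). The study's methods give 5 separate sorts for the double positive cells and 12 replicates for bulk, without saying whether replicates came from separate cultures, so the p-values below measure the spread between these libraries, which may be technical.

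In the developing neural tube, dividing progenitors lie in bands along the dorsoventral axis, and each band is marked by its own set of homeodomain and paired-box factors. Pax3 and Pax7 mark dorsal progenitors, Pax6, Irx3 and Dbx1 intermediate ones, and Nkx6-1 and Nkx2-2 ventral ones, with neighbouring factors often repressing each other. Rfx4 acts in progenitors and in the formation of cilia needed for Hedgehog signalling, and the Onecut factors act in newly formed neurons as well as in liver and pancreas. RA is a patterning signal in this tissue and drives embryonic stem cells toward neural fates, and Pax6 is also known for enhancers far from its promoters, many of them in introns of the neighbouring gene Elp4.

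The sequences below show some of the start sites, and the pair of Pax6 partner anchors described most fully. RefSeq promoters (GRCm38) were held in the reference table for 8 of the 10 genes, 10 promoters in all, and each had an exact match in mm9. Of these, 8 lay inside a TSS anchor of their own gene. The exceptions were the Dbx1 promoter, which lay between its 2 anchors, and the downstream Rfx4 promoter, which began just past the end of an anchor. The first 250 bases, which precede the start site, are printed 5′ to 3′ on the gene's strand with CG dinucleotides in capitals. Of the 10 promoters, 9 had more CG than the median of 6 over 32851 promoters of the same length, and the downstream Rfx4 promoter, with 2, was the exception. The printed Pax6 promoter lay in the Pax6 TSS anchor with the fewest read pairs, 45 in bulk. The other Pax6 promoter, not printed, lay in the anchor with the most, 180 in bulk. The last 2 sequences are the middle 200 bases of an anchor on the plus strand, in which the median over 216081 anchors was 2 CG.
Pax6 upstream promoter, mm9 chr2:105508803-105509052, 15 CG: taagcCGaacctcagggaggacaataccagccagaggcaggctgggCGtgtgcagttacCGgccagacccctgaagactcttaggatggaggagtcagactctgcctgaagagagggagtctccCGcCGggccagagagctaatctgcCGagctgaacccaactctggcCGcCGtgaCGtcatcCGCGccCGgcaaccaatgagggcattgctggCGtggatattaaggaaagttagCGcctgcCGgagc
Rfx4 upstream promoter, mm9 chr10:84218543-84218792, 15 CG: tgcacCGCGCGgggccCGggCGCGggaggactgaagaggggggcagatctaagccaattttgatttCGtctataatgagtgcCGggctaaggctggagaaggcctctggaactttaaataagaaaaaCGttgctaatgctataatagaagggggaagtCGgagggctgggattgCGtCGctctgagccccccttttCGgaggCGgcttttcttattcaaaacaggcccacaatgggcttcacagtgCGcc
Rfx4 downstream promoter, mm9 chr10:84300643-84300892, 2 CG: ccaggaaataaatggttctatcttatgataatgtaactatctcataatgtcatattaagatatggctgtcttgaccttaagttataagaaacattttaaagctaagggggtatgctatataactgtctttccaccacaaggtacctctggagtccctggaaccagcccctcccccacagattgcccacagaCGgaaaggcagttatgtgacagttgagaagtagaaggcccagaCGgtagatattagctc
Irx3 promoter, mm9 chr8:94325554-94325803 (minus strand), 13 CG: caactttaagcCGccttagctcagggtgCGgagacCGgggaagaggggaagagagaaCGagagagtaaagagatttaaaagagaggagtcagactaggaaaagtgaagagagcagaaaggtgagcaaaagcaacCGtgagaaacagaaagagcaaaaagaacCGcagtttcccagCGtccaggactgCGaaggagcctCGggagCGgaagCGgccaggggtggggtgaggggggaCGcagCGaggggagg
Pax6 partner 56.9 kb upstream, mm9 chr2:105452047-105452246, 3 CG: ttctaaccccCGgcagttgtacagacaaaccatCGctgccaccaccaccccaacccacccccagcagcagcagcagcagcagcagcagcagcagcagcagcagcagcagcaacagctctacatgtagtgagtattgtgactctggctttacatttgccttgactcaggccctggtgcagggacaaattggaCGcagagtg
Pax6 partner in an Elp4 intron, mm9 chr2:105560021-105560220, 4 CG: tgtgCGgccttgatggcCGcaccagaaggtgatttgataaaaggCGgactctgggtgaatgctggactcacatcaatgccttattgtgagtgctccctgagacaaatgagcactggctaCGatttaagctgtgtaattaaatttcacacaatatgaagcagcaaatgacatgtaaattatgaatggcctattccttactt

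Both strands of all 10 promoters were searched for 5 short motifs, chosen with these data known. GATC, the cut site of MboI, the enzyme of the assay and hence the limit of the anchors, was in 6 of the 10, against 41.9% of all promoters. The E-box CAGCTG, the SOX core AACAAT and the octamer ATTTGCAT were in none of them, against 13%, 9.42% and 1.6% of all promoters of this length. The X-box part GTTGCC, known from RFX sites, was in the upstream Pax6 promoter and the Dbx1 promoter, against 10.4% of all promoters. None of the 5 motifs was in the middle of either Pax6 partner anchor printed above.

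Fewer read pairs reached the start sites of these genes in double positive cells than in bulk. All 10 had the minimum for a test, 20 read pairs in all and at least 1 in each of 5 libraries. By edgeR's quasi-likelihood test over 14115 genes all 10 were lower at the threshold (adjusted p below 0.05), while 42.8% of all tested genes were lower at that threshold and 20.6% higher. Their median log2 fold change, double positive against bulk, was -3.03, beside -0.52 for all tested genes. The median stayed at -3.03 with Dbx1, which had no double positive read pair, set to the bound that 3 counts allow. With TMM scaling every double positive library lay below every bulk library in 4 of the 10 (Pax6, Onecut2, Irx3 and Dbx1), against 14.9% of all tested genes, and with library size alone in Irx3 and Dbx1 only, against 8.91%. Dbx1 passed the minimum through bulk alone and none of its anchors was used by a double positive loop, so it could not have been other than lower. Irx3, Onecut2, Pax3, Nkx6-1, Pax7 and Rfx4, with 1 to 13 double positive read pairs each, also reached 20 read pairs through bulk. Each of these had an anchor used by a double positive loop. The count of 10 lower genes and their median rest in part on these genes. A bulk measurement of this kind cannot tell fewer cells with a contact from fewer contacts per cell.

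Of 216081 anchors, 200999 were used by bulk loops only, 8 by double positive loops only and 15074 by both, and the size of the differences depended on how libraries were scaled. When library size was used without TMM factors, the median of all tested genes moved from -0.52 to 1.21 and that of the 10 from -3.03 to -1.32, 26.2% of genes were lower and 55.3% higher, and 5 of the 10 were called lower: Pax6, Rfx4, Onecut2, Irx3 and Dbx1. The other 5 were not called, and Onecut1 and Nkx6-1 changed sign, to 0.15 and 0.03. Relative to the median gene under each scaling, Onecut1 was at -1.12 with TMM and -1.07 with library size alone, Pax6 at -2.65 and -2.61, and Irx3 at -4.56 and -5.0. The comparison was also run on loops whose anchors were both used by loops of both groups, where the median gene was at 0.42, 10% of 9845 genes were lower and 25.7% higher. On these shared anchors 5 of the 10 had enough read pairs: Pax6, Pax7 and Rfx4 were lower, at -2.80, -2.16 and -2.67, and Onecut1 (-0.52, adjusted p = 0.366 from edgeR's test) and Nkx2-2 (-0.73, adjusted p = 0.223) were not called. Shared anchors are selected by the read pairs themselves. Of the 25 TSS anchors of these genes, 14 (56.0%) were used by a double positive loop, against 28.2% of 39310 TSS anchors of all genes.

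**Figure D1:**
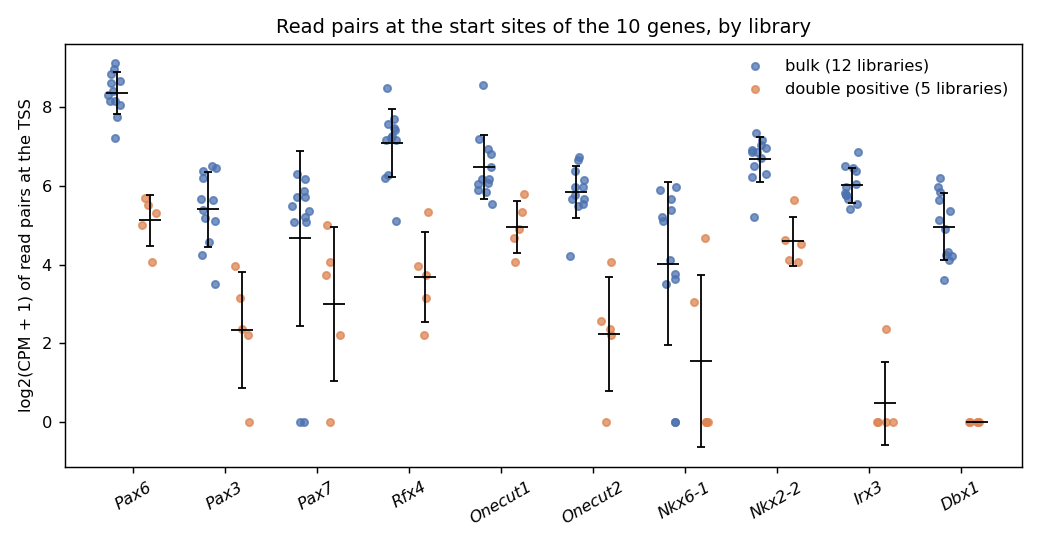
Normalized read pairs at the start sites of each gene, as log2(CPM + 1) with TMM scaling, with a point for each of the 12 bulk and 5 double positive libraries and bars for the mean and SD. Pax6, Onecut2, Irx3 and Dbx1 show no overlap between the groups under this scaling (Pax6 and Onecut2 overlap with library size alone), while 6 bulk libraries lie below the highest double positive library for Nkx6-1.

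**Figure D2:**
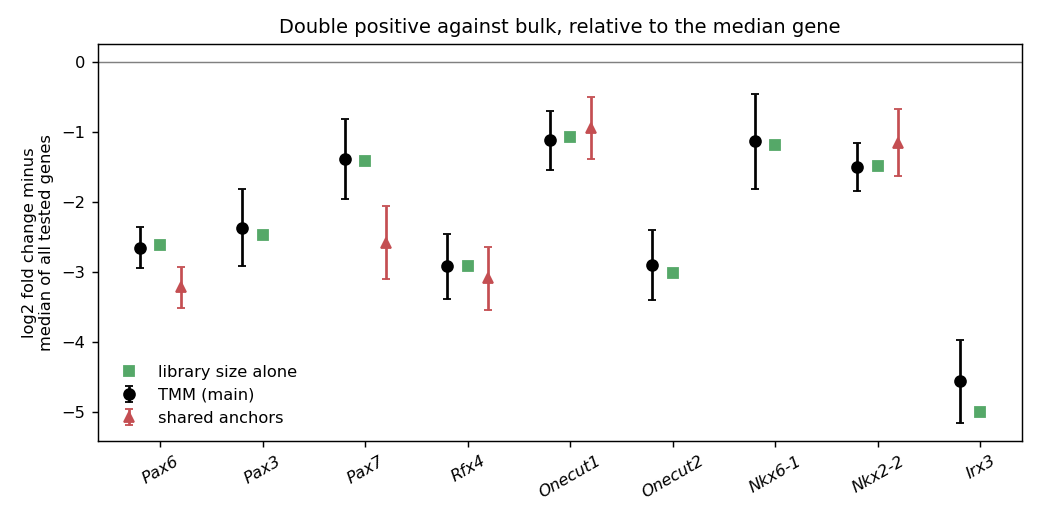
Log2 fold change of double positive against bulk minus the median of all tested genes, for the 9 genes with a double positive read pair, under TMM scaling, library size alone and shared anchors; bars are standard errors where drawn. The 9 genes lie below 0 under each scaling in which they were tested, from -0.94 for Onecut1 on shared anchors to -5.0 for Irx3 with library size alone.

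Pax6, a paired-box factor needed for eye, forebrain and neural tube progenitors, had the most read pairs of the 10. The gene lies on chromosome 2 from 105509053 to 105543317 (plus strand), and 4 anchors lay within 5 kb of its 29 annotated start sites, all of them used by double positive loops. Bulk libraries had from 9 to 79 Pax6 read pairs (median 34.5), and the 5 double positive libraries had 14, 8, 4, 2 and 11. The groups did not overlap after TMM scaling, with 149 to 558 CPM (read pairs scaled to a common library size, here with TMM factors) in bulk and 15.8 to 51.1 CPM in double positive libraries. With library size alone they did, with 104 to 328 CPM in bulk and 39.6 to 118 CPM in double positive libraries, where 1 bulk library lay below the highest double positive one. The mean was 349 ± 121 CPM (SD, n = 12) against 36.5 ± 13.7 CPM (SD, n = 5), a log2 fold change of -3.17 ± 0.29 (SE; edgeR, adjusted p = 4.77e-11). Pax6 was called lower under all 25 alternatives in which it was tested.

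In bulk libraries Pax6 reached widely on both sides, and most of all downstream. Of 418 bulk read pairs, 89 joined Pax6 TSS anchors to each other, 95 went upstream and 234 downstream, to 123 partner anchors of which 56 had 2 or more read pairs. The partner with the most read pairs lay 56.9 kb upstream, outside any protein-coding gene, at 105450852 to 105453441, and had 26 read pairs in 11 of 12 bulk libraries. The next was 392.1 kb downstream at 105921651 to 105927771, nearest to Dnajc24, with 14 read pairs in 8 bulk libraries against 0 in double positive libraries, none of whose loops used this anchor for any gene. The upstream partner was also the leading one in double positive cells, with 4 read pairs in 3 of 5 libraries, and its middle bases are printed above.

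Anchors in Elp4, which codes for a subunit of the Elongator complex, were present among the bulk partners of Pax6. Anchors over the whole of Elp4 were counted, and the known enhancers in its introns were not located one by one. Elp4 spans 207 kb of chromosome 2 from 105537477 to 105744721, and its end overlaps the end of Pax6. Of 23 anchors in Elp4, 19 were joined to a Pax6 start site in bulk, with 98 read pairs, at distances of 6.5 to 196.4 kb. On 16 of these anchors, which lie wholly in Elp4 introns, there were 74 read pairs. The nearest, at 105538246 to 105539982 in the stretch shared by both genes, had 13 read pairs in 6 libraries. The intronic anchor printed above, at 105558437 to 105561804 and 27.5 kb away, had 10 read pairs in 6 libraries, and an intronic anchor 81.2 kb away had 7 read pairs in 7 libraries. Read pairs were spread along the gene, and 2 of the 19 anchors had 1 read pair.

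Elp4 received a share of the Pax6 read pairs in every bulk library, from 17.7% to 41.7% with a median of 23.5%. In the 5 double positive libraries the share was 0% each time, 0 of 39 read pairs together, and 3 counts of this total would be 7.69%. The mean share was 25.2% ± 6.86 (SD, n = 12) in bulk against 0% (n = 5), and no test is given for this difference. None of the 23 Elp4 anchors was used by any double positive loop of any gene. The deposited loops do not show whether these anchors were called in double positive cells, so uncalled anchors and absent contacts cannot be told apart. Within 200 kb on the upstream side, 1 of 21 anchors was used by double positive loops, and bulk libraries had 59 Pax6 read pairs on 13 of them. Within 200 kb downstream 0 of 22 anchors was used, and bulk libraries had 98 read pairs on 19 of them.

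**Figure D3:**
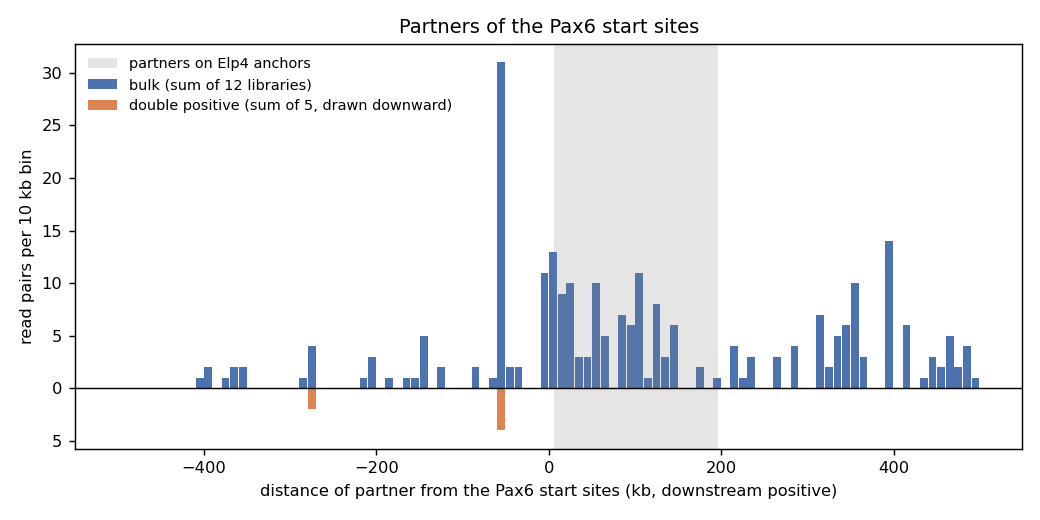
Read pairs between Pax6 TSS anchors and partner anchors in bins of 10 kb up to 500 kb on either side, bulk drawn upward (sum of 12 libraries) and double positive downward (sum of 5), with the extent of the joined Elp4 anchors in grey. Bulk read pairs fill the grey stretch and stand highest near 57 kb upstream, while double positive read pairs appear in this range only on the upstream side.

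What remained in double positive cells was mostly contact among the Pax6 start sites themselves. These took 28 of 39 read pairs (71.8%) in double positive and 89 of 418 (21.3%) in bulk libraries, and the mean share per library was 64.6% ± 15.2 (SD, n = 5) against 19.8% ± 13.2 (SD, n = 12). No test is given for this difference, which was noticed in the counts and depends on the anchors: all 4 Pax6 TSS anchors were used by double positive loops, while few of the anchors around them were. On shared anchors alone, the mean bulk share was 63.0% ± 28.1 (SD, n = 12) and the difference was 1.6 percentage points, less than the spread between libraries.

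Only 4 loops of the 10 genes had enough read pairs for a test of single loops, of which 22.4% of 5369 were lower and 38.1% higher. The 3 Pax6 loops joined the downstream 3 of its TSS anchors to each other, and all 3 were lower. Between anchors at 105514082 to 105517290 and 105520270 to 105524058 there were 26 bulk and 7 double positive read pairs, a log2 fold change of -2.09 (adjusted p = 0.000756 from edgeR's test). From the second of these to the anchor at 105526679 to 105531349 there were 34 and 9 (-2.15, adjusted p = 0.000132), and from the first to that anchor 17 and 3 (-2.50, adjusted p = 0.000589). With library size alone none of the 3 was called, and the first pair of loops changed sign, to 0.10 and 0.08, where the median loop was at 2.99 in place of 0.78, with 13.8% of loops lower and 76.9% higher. On shared anchors all 3 were lower (-1.82, -1.88 and -2.25 in the order given above), against 11.5% of 4789 loops lower and 52.1% higher. The Pax6 loops with 26 and 34 bulk read pairs reached the minimum for a test through bulk alone. The Pax6 loop with 17 reached it mostly through bulk. The count of 3 lower loops rests in part on this. The remaining loop, between the Onecut1 anchors, is given with that gene.

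**Figure D4:**
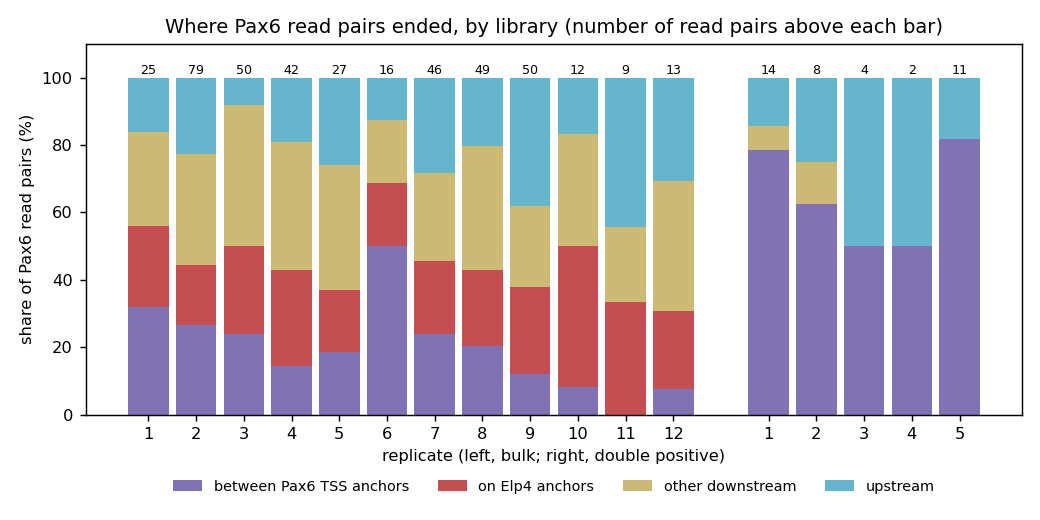
Share of the Pax6 read pairs of each library (%) that joined Pax6 TSS anchors to each other, reached Elp4 anchors, or went elsewhere downstream or upstream, with the number of read pairs above each bar. All 12 bulk libraries have an Elp4 part, from 17.7% to 41.7%, and no double positive library has one.

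Pax3 and Pax7, the paired-box factors of dorsal progenitors and of neural crest, had fewer read pairs. Pax3 lies on chromosome 1 from 78097842 to 78193709 (minus strand), with 1 to 14 read pairs per bulk library (median 3) and 1, 3, 1, 0 and 1 in double positive libraries. Below the highest double positive library lay 1 bulk library with TMM scaling and 7 with library size alone. The log2 fold change was -2.89 ± 0.55 (SE; edgeR, adjusted p = 2.6e-05), with 49.4 ± 27.9 CPM (SD, n = 12) in bulk and 6.06 ± 5.56 CPM (SD, n = 5) in double positive libraries. Its leading partner in both groups was an intronic anchor of Pax3 itself, 6.6 kb from the start site at 78185487 to 78188094, with 16 read pairs in 6 bulk libraries against 3 in 1 double positive library. In double positive cells an anchor 19.6 kb upstream tied with it, with 3 read pairs in 3 libraries, beside 5 in 4 bulk libraries.

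For Pax7, on chromosome 4 from 139292977 to 139389445 (minus strand), bulk libraries had 0 to 10 read pairs (median 4) and double positive libraries 1, 0, 2, 4 and 3. The groups overlapped: with TMM scaling the 2 bulk libraries without a Pax7 read pair lay below the highest double positive library, and with library size alone all 12 did. The log2 fold change was -1.90 ± 0.57 (SE; edgeR, adjusted p = 0.00383), on 41.3 ± 23.9 CPM (SD, n = 12) against 12.6 ± 12.3 CPM (SD, n = 5). The leading bulk partner lay in a Pax7 intron 25.4 kb away, with 7 read pairs in 3 libraries against 0 in double positive libraries. Double positive read pairs fell on 9 partners, and only the one at the start of Aldh4a1, 209.9 kb away, had 2.

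Rfx4, a winged-helix factor of the RFX family, was second in read pairs among the 10. It lies on chromosome 10 from 84218807 to 84369283 (plus strand), with 4 TSS anchors of which only the one over the upstream promoter was used by double positive loops. Bulk libraries had 3 to 37 read pairs (median 11) and double positive libraries 1, 3, 1, 5 and 3. Bulk libraries below the highest double positive one numbered 1 with TMM scaling and 3 with library size alone. The level was 157 ± 82.8 CPM (SD, n = 12) against 15.6 ± 14 CPM (SD, n = 5), a log2 fold change of -3.44 ± 0.46 (SE; edgeR, adjusted p = 8.83e-08), which was -3.93 without double positive replicate 4. The anchor over the upstream promoter had 114 bulk and 13 double positive read pairs, and the anchor that ends next to the CG-poor downstream promoter had 23 and 0.

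Among Rfx4 partners, an anchor 65.4 kb upstream in Polr3b, a gene for a subunit of RNA polymerase III, held the most bulk read pairs. It spans 84147945 to 84158913 and had 24 read pairs in 9 bulk libraries against 1 in double positive libraries. The leading double positive partner was another anchor, in an Rfx4 intron 48.5 kb from the nearest start site at 84347947 to 84350906, with 6 read pairs in 3 of 5 libraries and 3 read pairs in 3 bulk libraries. Neither loop reached the minimum for a test.

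Onecut1, a cut-homeodomain factor also called HNF6, had, beside Nkx6-1, the smallest difference of the 10. It lies on chromosome 9 from 74709728 to 74737591 (plus strand), with both TSS anchors used by double positive loops. Bulk libraries had 4 to 38 read pairs (median 7) and double positive libraries 15, 6, 5, 2 and 6. Bulk replicate 7 alone held 38 of the 121 bulk read pairs, on 28 loops of which 16 were seen in no other library, and no other bulk library had more than 14. The level was 107 ± 91.5 CPM (SD, n = 12) against 32.8 ± 14.9 CPM (SD, n = 5), a log2 fold change of -1.64 ± 0.42 (SE; edgeR, adjusted p = 0.000856). Bulk libraries below the highest double positive library numbered 1 with TMM scaling and 11 with library size alone. The call held when any one library was left out, with values from -1.95 to -1.25, and among other scalings and anchor sets it was lost with library size alone and on shared anchors.

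The loop between the 2 Onecut1 TSS anchors had 11 bulk and 14 double positive read pairs, with 8 of the 14 in replicate 1. Its log2 fold change was -0.07 ± 0.60 (SE; edgeR, adjusted p = 0.928), and it was 2.14 (adjusted p = 0.000442) with library size alone. Outside these anchors the leading partner in both groups was 13.8 kb upstream at 74693979 to 74697888, with 9 read pairs from 3 bulk and 5 from 4 double positive libraries. Of the bulk read pairs that left the TSS anchors, 88 went upstream and 22 downstream.

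Onecut2, the paralogue on chromosome 18 from 64500002 to 64560641 (plus strand), showed no overlap between groups with TMM scaling, while with library size alone 5 bulk libraries lay below the highest double positive one. Bulk libraries had 1 to 16 read pairs (median 4.5) and double positive libraries 1, 1, 2, 0 and 1. The level was 62.0 ± 25 CPM (SD, n = 12) against 5.67 ± 5.92 CPM (SD, n = 5), a log2 fold change of -3.42 ± 0.50 (SE; edgeR, adjusted p = 4.52e-07), which was -3.88 without double positive replicate 3. Its leading bulk partner lay 478.0 kb upstream in Wdr7, with 7 read pairs in 4 libraries against 1 in double positive libraries, and no double positive partner had more than 1 read pair.

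Nkx6-1 and Nkx2-2 are homeodomain factors of ventral progenitors that respond to Hedgehog signalling, and both act in pancreas as well. Nkx6-1, on chromosome 5 from 102087158 to 102094245 (minus strand), had the fewest read pairs, 29 in bulk and 8 in double positive libraries. Bulk libraries had 0 to 6 (median 2), and double positive libraries 2, 0, 0, 0 and 6. The groups overlapped, with 6 of 12 bulk libraries below the highest double positive library with TMM scaling and all 12 with library size alone. The log2 fold change of -1.65 ± 0.68 (SE; edgeR, adjusted p = 0.0334) was called in 13 of 22 alternatives and lost when any of 7 single libraries was left out (bulk replicate 5, 7 or 8, or double positive replicate 1, 2, 3 or 4), with adjusted p up to 0.0924. With 1 library left out the value ran from -2.91 to -1.35, and -2.91 was reached without double positive replicate 5, which held 6 of the 8 double positive read pairs. All read pairs that left its TSS anchors went downstream. The leading bulk partner was 141.1 kb away with 3 read pairs, and the leading double positive partner was the start of Plac8, 1092.3 kb away, with 3 read pairs in 1 library and 0 in bulk.

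Nkx2-2 lies on chromosome 2 from 147003282 to 147019979 (minus strand), with 2 to 23 read pairs per bulk library (median 8.5) and 6, 10, 3, 2 and 4 in double positive libraries. With TMM scaling only 1 bulk library lay below the highest double positive library, while with library size alone all 12 did. The level was 108 ± 33.9 CPM (SD, n = 12) against 25.3 ± 13.6 CPM (SD, n = 5), a log2 fold change of -2.02 ± 0.34 (SE; edgeR, adjusted p = 4.13e-06). The anchor over the RefSeq promoter, at 147009155 to 147014708, had 41 bulk read pairs and was used by no double positive loop, while the anchors on either side had 60 and 34 in bulk and 16 and 14 in double positive libraries. Its leading partners lay in Plk1s1, downstream: an anchor 227.0 kb away had 10 bulk and 4 double positive read pairs, and an anchor 330.2 kb away had 1 and 5. A further Plk1s1 anchor, 229.8 kb away, had 10 bulk and 0 double positive read pairs and was used by no double positive loop.

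Irx3, an Iroquois homeodomain factor of intermediate progenitors, and Dbx1, a homeodomain factor of the progenitors of certain interneurons, were the genes nearest to 0 in double positive cells. Irx3, on chromosome 8 from 94322428 to 94325553 (minus strand), had 3 to 18 read pairs in every bulk library (median 5.5) and 0, 0, 0, 0 and 1 in double positive libraries. The ratio of the pooled double positive to the pooled bulk count, each per TMM-scaled library size, was 0.0151 (95% exact interval 0.000378 to 0.0867, counting error only), and edgeR's adjusted p was 7.15e-09. Without double positive replicate 5, which held that read pair, the count was 0. Irx3, which reached the minimum through bulk alone, could then only be lower, so no p is given for that setting. The only double positive partner was 195.8 kb upstream, and the leading bulk partner was 312.5 kb upstream with 4 read pairs in 2 libraries. Dbx1, on chromosome 7 from 56886869 to 56892219 (minus strand), had 1 to 11 read pairs in every bulk library (median 3, 43 in all) and none in double positive libraries. None of its 2 TSS anchors was used by a double positive loop, so no fold or p is given. With the nearer anchor taken on a tie, the leading bulk partners of Irx3, Dbx1 and Nkx6-1 were, as the only 3 of the 10, on anchors that no double positive loop used. That of Dbx1, 66.0 kb upstream at 56954930 to 56961488, had 9 read pairs in 5 libraries. Tied anchors differed in this: that of Irx3, 555.2 kb upstream with 4 read pairs, was used, and that of Nkx2-2, 229.8 kb away with 10, was not.

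**Figure D5:**
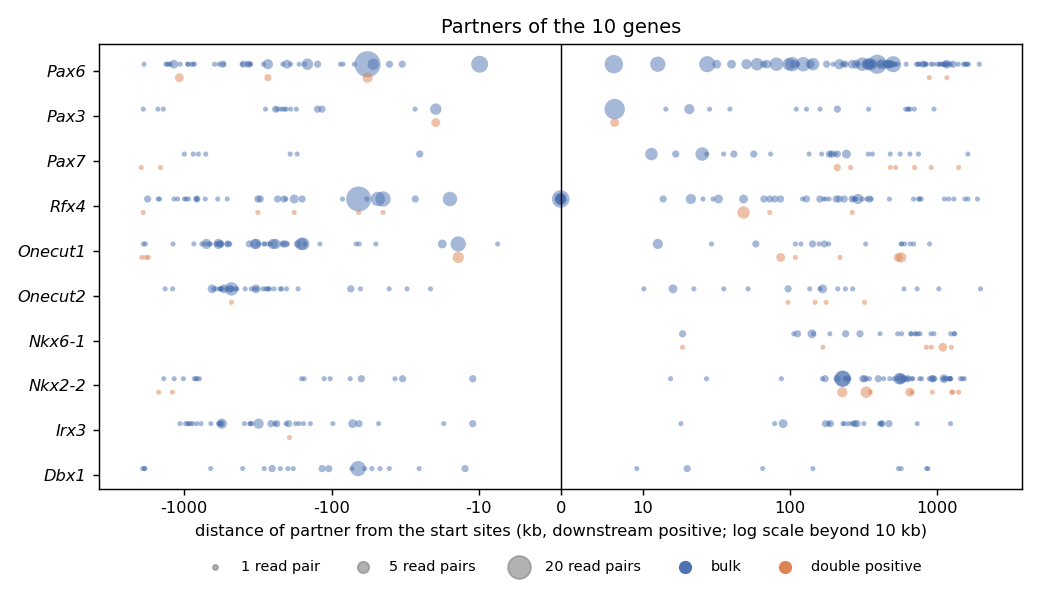
Signed distance (kb, log scale beyond 10 kb) of every partner anchor from the first or last start site of each gene, whichever is nearer. Circle area is proportional to read pairs, bulk above and double positive below each line. Partners between the first and last start site, which only Rfx4 has, are drawn at 0 and need not lie at a start site. Pax6 and Rfx4 have large bulk circles on the upstream side, at 56.9 and 65.4 kb, and Nkx6-1 has partners only downstream.

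Compared per kb of TSS anchor, since anchors differ in length, the bulk level was highest for Pax6 at 23.1 ± 8.0 CPM per kb (SD, n = 12). Rfx4 followed at 15.3 ± 8.08, Pax7 at 11.6 ± 6.7, Onecut1 at 11.1 ± 9.49 and Irx3 at 11.1 ± 3.67 CPM per kb. Lower levels were those of Pax3 (7.53 ± 4.25), Nkx2-2 (6.43 ± 2.03), Dbx1 (6.17 ± 3.55), Onecut2 (6.11 ± 2.46) and Nkx6-1 (3.61 ± 2.88 CPM per kb). No neighbours in this order differed by more than the larger of their SDs. In double positive libraries Pax7 (3.54 ± 3.44), Onecut1 (3.40 ± 1.55) and Pax6 (2.41 ± 0.904 CPM per kb, SD, n = 5) were not separated beyond their spread, and Pax7 was at 2.22 CPM per kb without replicate 4. Single libraries also carried much of the double positive mean of Rfx4 (1.52, and 0.939 without replicate 4), Pax3 (0.923, and 0.595 without replicate 2), Onecut2 (0.559, and 0.311 without replicate 3), Nkx6-1 (0.832, and 0.238 without replicate 5) and Irx3 (0.136, and 0 without replicate 5).

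Loops with a TSS at both ends, those between a gene's own TSS anchors included, took 271 of the 1180 bulk read pairs (23.0%), beside 31.4% of 805239 read pairs of all loops with a TSS anchor. In double positive libraries they took 102 of 141 (72.3%), beside 73.2% of 388224. Without the loops between own anchors, for which no matching value over all genes was computed, 146 of 1055 bulk (13.8%) and 55 of 94 double positive read pairs (58.5%) had a partner at a TSS. Loops with both anchors used by both groups held 23.3% of the genes' bulk read pairs, beside 12.3% of all bulk read pairs. By distance between anchor middles, loops of 100 to 500 kb took the largest part of the genes' bulk read pairs, 37.0% ± 6.05 (SD, n = 12), beside 33.6% ± 0.381 for all loops with a TSS anchor. In double positive libraries spans under 20 kb took 34.3% ± 17.1 (SD, n = 5), beside 20.5% ± 0.412 for all loops with a TSS anchor, and spans of 100 to 500 kb 28.9% ± 16.1, beside 30.9% ± 0.238, both differences within the spread. Spans of 20 to 100 kb took 10% ± 3.16 there, beside 34.5% ± 0.553, and spans over 500 kb 26.8% ± 5.5, beside 14.1% ± 0.315, and both of these differed by more than the spread. The short spans held 56 of the 141 double positive read pairs, largely from loops between own TSS anchors of Pax6 and Onecut1.

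The wider progenitor code was examined with 22 relatives, listed with earlier results known. Of 19 with enough read pairs, 11 were lower, 4 were higher and 4 were not called, with a median log2 fold change of -1.42, beside 42.8% lower and 20.6% higher over all tested genes. Pax5 and Prdm12 are among the lower ones, but as for Dbx1 no double positive loop used any of their anchors, so they could only be lower. Without them 9 of 17 were lower and the median was -1.35. Of these 9, all but Rfx3 and Sp8 reached 20 read pairs through bulk. Among the higher genes, Rfx1 and Msx2 reached 20 through double positive libraries. The counts of lower and higher relatives and the median rest in part on such genes. The lower ones included Pax8 (-3.63, 229 bulk and 15 double positive read pairs), Pax2 (-2.88, 148 and 15), Irx1 (-2.92, 93 and 9) and Irx5 (-2.38, 55 and 8), the last being the neighbour of Irx3 in the same cluster. Nkx6-2 (-1.96), Rfx3 (-2.01), Dbx2 (-2.53), Irx2 (-1.42) and Sp8 (-1.35) were also lower, while Pax5 and Prdm12 had 88 and 41 bulk read pairs and no double positive one. Leaving out 1 library lost the calls of Irx2 (-1.26, adjusted p = 0.0592 from edgeR's test without double positive replicate 5, and also without replicate 1) and Msx2 (1.13, adjusted p = 0.0631 without double positive replicate 3). Higher were Rfx1 (2.42, 15 and 68), Rfx2 (1.51, 31 and 77), Rfx5 (1.22, 44 and 88) and Msx2 (1.33, 14 and 30), the first 3 being widely expressed members of the family of Rfx4. Onecut3 (0.25, adjusted p = 0.583 from edgeR's test), Olig1, Olig2 and Msx1 were not called. Gsx1, Gsx2 and Nkx2-9 had too few read pairs. On shared anchors 12 relatives were tested, 4 of them higher and 4 lower, beside 25.7% and 10% of all genes, and Pax8 (-1.13, adjusted p = 0.0825 from edgeR's test), Nkx6-2 (-0.07) and Rfx3 (0.60) lost their lower calls. With library size alone 7 relatives were higher, Onecut3 (2.0), Olig1 (2.08) and Olig2 (1.92) among them, and 5 were lower, beside 55.3% and 26.2% of all genes: Irx1, Pax2 and Pax8, and Pax5 and Prdm12, for which no other direction was possible. Under that scaling Dbx2, Irx5, Nkx6-2 and Rfx3 lost their lower calls, Irx2 (0.29) and Sp8 (0.41) lost theirs and changed sign, and Msx1, not called in either, went from -0.94 to 0.69.

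Markers of other cell types were read in the same way, beside the labels of the groups. Of 6 endoderm genes, Gata4 (log2 fold change 1.73) and Foxa2 (1.51) were higher and none was lower, beside 20.6% higher and 42.8% lower over all tested genes. Sox17 (-0.57) and Gata6 (0.02) were among those not called. Sox17 was at 0.18 without bulk replicate 8, which held 17 of its 36 bulk read pairs. Gata6 took either sign with 1 library left out, from -0.08 to 0.50. The summed level of the 6 genes was 488 to 641 CPM in double positive and 102 to 424 CPM in bulk libraries. Gata4 had the most double positive read pairs, 209, and Foxa2 the most in bulk, 78 against 73 for Gata4. The sort genes Epcam (1.05, adjusted p = 0.107 from edgeR's test) and Cd38 (0.65, adjusted p = 0.195) were not called, and on shared anchors Cd38 (1.86) and Sox17 (4.01) were higher and Epcam (0.35) was not called. With library size alone all 6 endoderm genes were higher, Epcam (2.75), Cd38 (2.38), Gata6 (1.76) and Sox17 (1.18) included. Under that scaling 55.3% of all tested genes were higher and their median was at 1.21, close to Sox17. All 3 neural genes with enough read pairs were lower, Pou3f2 (-5.15), Neurod1 (-4.60) and Lhx1 (-3.36), beside 42.8% of all tested genes. Their double positive read pairs were 8, 5 and 10 in that order, so all 3 reached the minimum for a test through bulk. The count of lower neural genes rests in part on this. The summed level of these 3 was 0 to 32.9 CPM in double positive and 290 to 818 CPM in bulk libraries, with Pou3f2 the most abundant. Sox3 had no read pair in either group, and Sox1 was not in the annotation used. Of 4 pluripotency genes, Pou5f1 was higher (1.06, not called on shared anchors or without double positive replicate 2, where it was at 0.69), Esrrb had 132 bulk read pairs and no anchor used by a double positive loop, and Nanog and Zfp42 had too few. How far the share of neural cells in each group took part in the differences of the 10 genes was not tested.

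Across all 17 libraries, the genes whose log2(CPM + 1) was most like that of Pax6 were Adam33 (Pearson r = 0.97), Epc2 (0.962) and Wdr95 (0.962), among 14114 genes compared. As 2464 genes had an r over 0.8 and the libraries fall into 2 groups, these values describe the whole set of libraries and not the variation within a group. Within the 12 bulk libraries the same 3 genes had r = 0.868, 0.729 and 0.726.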

How the data were processed

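H3K27ac HiChIP was measured in 12 bulk and 5 double positive libraries (MboI digestion). Alignment to mm9 by the authors used HiC-Pro, and they called peaks and loops with hichipper; the deposited values are counts of read pairs for each pair of anchors, without normalization, and list only loops with a read pair. How the anchor set of each group was made is not given in the sources used here, and the PCR and mapping filters were not repeated. PCR copies make read pairs less independent than molecules, so intervals cover counting error only.

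Anchors that overlapped between the 17 libraries were merged (216081 anchors, 1211657 loops, 700 read pairs within a joined anchor dropped). Read pairs were summed per protein-coding gene over the loops anchored within 5 kb of a TSS. Of 22367 genes, 19244 had such an anchor. Genes and loops holding 20 or more read pairs in all, from 5 or more libraries, entered edgeR 4.0.16 in R 4.3.3 (total read pairs in loops scaled by TMM, quasi-likelihood test, Benjamini-Hochberg adjustment over all genes or loops tested, adjusted p under 0.05). Fold changes are double positive over bulk. Shares were also compared by exact permutation over libraries, but no p is given for them, since the anchor sets of the groups bear on both shares. Alternatives were library size alone, DESeq2 1.42.0 (poscounts), other minimums, no filter, a 2.5 kb window, spans of at least 20 kb, shared anchors, the replicate number as a block, and each library left out (for loops and shares, each double positive library). The tests were also run on simulated counts with known folds. Of genes set to 0.25-fold 40.4% were recovered, and of those set to 4-fold 92%. For loops these values were 15.8% and 38.8%. False calls made up 8.14% of gene calls and 6.67% of loop calls. Python 3.11.15 did the rest.

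The genes, lists and tests were chosen with earlier results of these data known. Chosen after counts were seen were the share of contacts between Pax6 start sites, the reading of a partner as an anchor outside a gene's own TSS anchors, the sequences shown, the motifs, and a fit of replicates 1 to 5 without a block. The text names for each gene the partner with the most read pairs in each group, the nearer one on a tie, and every loop that entered the loop test. Further Pax6, Pax3, Nkx2-2, Irx3 and Elp4 partners were picked after their values were seen. Replicate numbers did not pair the libraries: deviations of same-numbered libraries correlated from -0.0186 to 0.0147. Libraries of a group were not copies of the same counts: chi-square tests of gene counts gave 1.39 to 3.83 per degree of freedom over 66 bulk pairs and 1.09 to 1.19 over 10 double positive pairs, with p at most 4.71e-09. These tests take read pairs as independent, so they cannot tell repeat libraries of 1 sample from separate samples.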

Additional observations from a re-analysis of the deposited data

Results flagged for a closer look

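Within the 5 double positive libraries, 42 sets of values were screened for a library whose distance to its nearest neighbour took more than 0.71 of the range of the set; chance alone gives about 1 such set in 20. Nkx2-2 met this in replicate 2, at 48.8 CPM beside 15.8 to 23.6 CPM in the other double positive libraries. Irx3 met it in replicate 5, at 4.11 CPM from 1 read pair, where the other 4 libraries had 0. Groups of 12 libraries were not screened, so bulk replicate 7 for Onecut1 was not part of this.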

How the results depend on the processing

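Of 242 values of the 10 genes under alternatives, 226 kept direction and call, 14 lost the call and 2 reversed, Onecut1 (0.15) and Nkx6-1 (0.03), both with library size alone. That scaling called 3702 genes lower and 7800 higher, 5 of the 10 lower, and 740 loops lower and 4129 higher, 0 of the named loops lower. With it the Pax6 loops gave 0.10, -0.48 and 0.08 and the Onecut1 loop 2.14; the latter, never called lower, was at 0.55 with a minimum of 10 read pairs and 0.21 on shared anchors. A minimum of 50 read pairs called 3786 genes lower (8 of the 10 tested, 8 called), and 197 loops lower and 334 higher, with 0 of the named loops left; no filter called 9771 genes lower; a minimum of 10 called 4725 loops lower and 6515 higher. Shared anchors called 988 genes lower, 3 of the 10 lower, and 552 loops lower. These follow in part from the number of features tested; otherwise the cause was not tested.

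The replicate block on replicates 1 to 5 called 3966 genes lower and 429 loops lower and 827 higher; the same libraries without the block called 4171 genes lower and 486 loops lower and 1142 higher. With the block Onecut1 was at -0.95 (adjusted p = 0.0559 from edgeR's test), against -0.94 (0.0326) for the same libraries without it, and Nkx6-1 was not tested. Leaving out each of the 17 libraries in turn gave 5517 to 5940 lower and 2572 to 2941 higher genes, 9 to 10 of the 10 called (Nkx6-1 being the one lost). For loops and shares only the 5 double positive libraries were left out in turn, which gave 1139 to 1182 lower and 1206 to 1571 higher loops, 2 to 3 named loops called lower, and -0.22 to 0.07 for the Onecut1 loop (0.05 without double positive replicate 2 and 0.07 without replicate 3; without replicate 1 it had too few read pairs). The Elp4 difference was -25.2 percentage points in each case, which it had to be, since every double positive share is 0 and no bulk library was left out. The difference in the share between Pax6 start sites was 40.5 to 48.4 points, and 1.6 points on shared anchors. Depth limits single loops: 550 of the 756 had 1 read pair.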
